A study of Mus musculus with 16 samples.

Results

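The genes described here are Bcl2, Bcl2l1, Mcl1 and Bbc3, taken by name as members of the BCL2 family of survival regulators. They are 4 of the 7946 genes listed in an expression table of mouse alveolar macrophages, and each was found there once. The libraries fell into 4 groups of 4, given as LPS p16-positive, LPS p16-negative, PBS p16-positive and PBS p16-negative. All cells came from lungs of C57BL6 mice, whose age the labels do not give, after 10 weeks of aerosol sessions of 30 min held 3 times weekly. The study worked with female mice throughout, young or old, and does not tie an age to these libraries. LPS mice breathed Escherichia coli lipopolysaccharide, a bacterial product that drives lung inflammation, at 0.5 mg/ml in PBS, and PBS mice breathed the buffer alone. Alveolar macrophages, sorted on CD45, CD11c and Siglec-F, were split by an intracellular stain for p16, an inhibitor of cell cycle kinases that is used as a marker of senescent cells. Each library held RNA from 5000 cells, the labels speak of pooled samples, and no source ties a library to an animal, so the p-values measure the spread between libraries, part of which may be technical.

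BCL2 family proteins decide at the outer mitochondrial membrane whether a cell starts apoptosis. Anti-apoptotic members such as BCL2, BCL-XL (encoded by Bcl2l1) and MCL1 hold the pore-forming effectors BAX and BAK in check, and BH3-only proteins such as PUMA (encoded by Bbc3) bind the anti-apoptotic members and release the effectors. Senescent cells are known to lean on anti-apoptotic members for survival, MCL1 is a short-lived protein that many myeloid cells need, and Bbc3 is a classical target of p53.

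Expression was counted as UMIs, molecular tags that each stand for 1 captured transcript, read at the 3′ end, so that levels of different genes can be set side by side without a length correction. Levels are given as CPM, the UMIs of a gene per 1000000 UMIs of its library. Library totals ranged from 13861 to 1176358 UMIs with a median of 153236, so that 3 UMIs, taken as the floor of a gene with no count, stood for between 216 CPM in the shallowest library and 2.55 CPM in the deepest. The 2 shallowest libraries were replicate 1 of PBS p16-positive and of PBS p16-negative, where marker genes of secretory airway cells held 26.9% and 17.9% of UMIs. All 14 alveolar macrophage markers on the list were detected, with a summed share of 0.693% to 8.18% of UMIs per library and a median of 2.84% in p16-positive and 4.09% in p16-negative libraries. Cdkn2a, the gene that encodes p16, had 34, 9, 7 and 8 UMIs in the LPS p16-positive, LPS p16-negative, PBS p16-positive and PBS p16-negative groups. Of the 34, 30 came from LPS p16-positive replicate 4, the deepest library with 31.5% of all UMIs, and replicates 1 and 3 of that group had 0. The log2 fold change of Cdkn2a for p16-positive over p16-negative libraries was -0.44 (SE 0.71, edgeR adjusted p = 0.951), or 0.14 without LPS p16-negative replicate 2. A difference in the RNA of the sorted gene was not detectable at this depth.

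The members lie on 4 chromosomes of mouse build GRCm38.p6, and all are annotated as protein coding. Bcl2 spans chr1:106538176-106714290, Bcl2l1 spans chr2:152758732-152833803, Mcl1 spans chr3:95656944-95663179 and Bbc3 spans chr7:16308398-16318334. The 250 bases before RefSeq starts of the members are shown for 3 of them, because these windows differ in base composition. Only the Bcl2 window lies outside the span of its gene. The windows of Bcl2l1, Mcl1 and Bbc3 stand before starts that lie inside the spans given above. The capitals mark matches to the GC box GGGCGG on either strand, a letter pattern bound by SP-family factors.

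Bcl2, chr1:106714291-106714540, minus strand: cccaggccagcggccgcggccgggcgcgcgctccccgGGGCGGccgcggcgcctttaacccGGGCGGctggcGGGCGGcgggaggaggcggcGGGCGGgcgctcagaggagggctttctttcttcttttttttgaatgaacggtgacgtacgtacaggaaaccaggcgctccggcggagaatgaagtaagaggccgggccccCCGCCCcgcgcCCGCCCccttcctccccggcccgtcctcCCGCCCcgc

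Bbc3, chr7:16309333-16309582, plus strand: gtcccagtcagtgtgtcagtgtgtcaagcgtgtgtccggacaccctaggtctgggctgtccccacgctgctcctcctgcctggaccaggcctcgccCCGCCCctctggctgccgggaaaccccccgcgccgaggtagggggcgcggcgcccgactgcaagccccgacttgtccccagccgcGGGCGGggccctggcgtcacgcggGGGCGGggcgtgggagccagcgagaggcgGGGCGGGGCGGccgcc

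Bcl2l1, chr2:152831729-152831978, minus strand: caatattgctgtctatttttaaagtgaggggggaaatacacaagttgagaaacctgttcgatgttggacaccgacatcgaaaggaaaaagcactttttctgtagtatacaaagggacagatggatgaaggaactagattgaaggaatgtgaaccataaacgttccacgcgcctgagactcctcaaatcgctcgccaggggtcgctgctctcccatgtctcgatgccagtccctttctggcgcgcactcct

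The Bcl2 window held 7 GC boxes and was 74.8% G or C, and the Bbc3 window shown held 5 and was 76.4% G or C. A further 2 windows upstream of other Bbc3 starts held 1 and 7. The window of Mcl1 held 1 GC box at 64.4% G or C, and none was found in the 3 windows of Bcl2l1, of which the one shown was 47.6% G or C. The other Bcl2l1 windows overlapped exons of that gene and were 48.4% and 53.2% G or C. Among all 32851 RefSeq windows of the same length, 32.7% held a GC box and the median was 52.4% G or C. An E2F-like pattern, TTTNNCGC, matched once, in 1 window of Bcl2l1 that overlaps an exon of the gene, against 4.28% of all windows. The STAT-like pattern TTCNNNGAA and the p53 half-site matched no window of a member, against 7.02% and 7.13% of all windows. These are letter matches in short windows and say nothing about binding.

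The members fell into a pair of well measured genes and a pair of sparse ones. Over the 14 libraries other than the PBS replicate 1 pair, mean levels were 385 CPM for Bcl2l1 (rank 445 of 7946 genes), 311 CPM for Mcl1 (rank 562), 56.0 CPM for Bbc3 (rank 2415) and 20.3 CPM for Bcl2 (rank 4346). Summed over all 16 libraries these were 1300, 1351, 230 and 78 UMIs. Bcl2l1 and Mcl1 were detected in every library, Bbc3 in 14 and Bcl2 in 13. Among the members, transcripts were thus mostly Bcl2l1 and Mcl1, with 43.9% (95% exact binomial interval 42.1 to 45.7) and 45.7% (43.9 to 47.5) of the 2959 UMIs of the 4 genes, while Bcl2 held 2.64% (2.09 to 3.28) and Bbc3 held 7.77% (6.83 to 8.80). Intervals on UMIs cover counting error only.

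**Figure D1:**
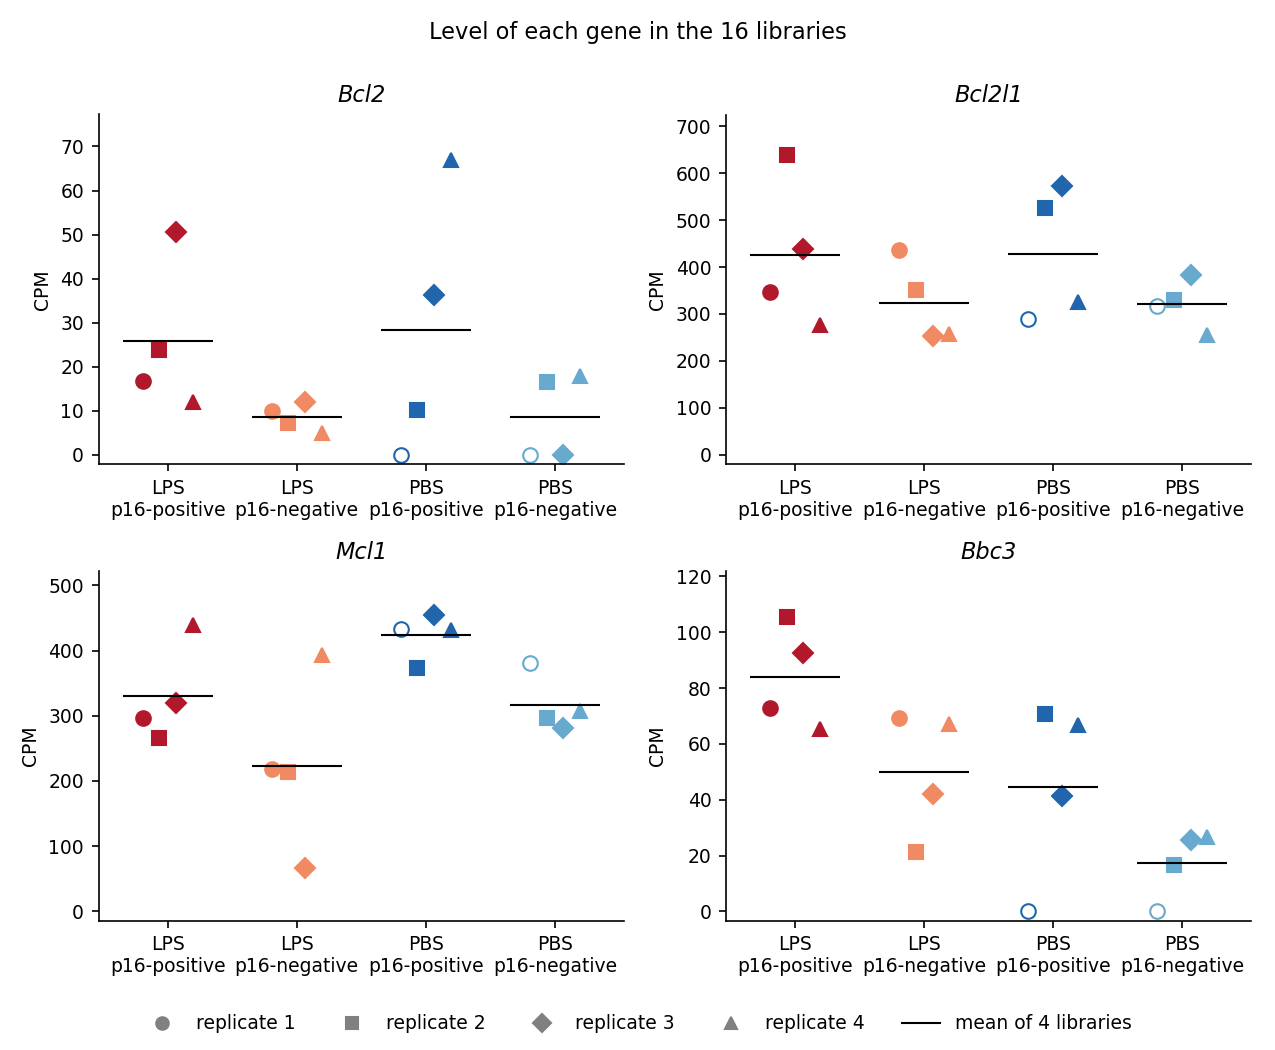
CPM of Bcl2, Bcl2l1, Mcl1 and Bbc3 (vertical axes, CPM) in the 16 libraries, by group, with marker shape for the replicate number and a line for the mean of 4 libraries; open circles are the shallow PBS replicate 1 libraries. The p16-positive mean lies above the p16-negative mean for every gene in both treatments, with overlapping points.

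Bcl2, the founding anti-apoptotic member, had more transcripts in p16-positive than in p16-negative macrophages, but the difference did not pass the test across all genes. Its levels were 16.8, 23.8, 50.5 and 11.9 CPM in LPS p16-positive libraries (replicates 1 to 4), against 9.90, 7.14, 12.0 and 4.98 CPM in LPS p16-negative libraries. In PBS mice it was at 0, 10.1, 36.2 and 66.9 CPM in p16-positive libraries, against 0, 16.4, 0 and 17.8 CPM in p16-negative libraries. The highest values were thus PBS p16-positive replicate 4 and LPS p16-positive replicate 3, and the fractions overlapped in both treatments, in LPS only between 11.9 CPM in a p16-positive and 12.0 CPM in a p16-negative library. Pooled by fraction, 67 UMIs were found in p16-positive libraries, 26.7 CPM (95% exact binomial interval 20.7 to 33.9), and 11 in p16-negative libraries, 8.96 CPM (4.47 to 16.03). With treatment as a covariate, the log2 fold change of p16-positive over p16-negative libraries was 1.56 (SE 0.60, 95% interval 0.34 to 2.78), or 2.94-fold, with an unadjusted edgeR p of 0.0140 and an adjusted p of 0.239.

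The 3 PBS libraries with no Bcl2 UMI had totals of 13861, 15755 and 117352 UMIs, so the upper limits that a count of 0 allows were 216, 190 and 25.6 CPM. A single library, PBS p16-positive replicate 4, held 29 of the 78 Bcl2 UMIs (37.2%) and 11.6% of all UMIs, and without it the log2 fold change was 1.26 (edgeR adjusted p = 0.614). Within treatments the log2 fold change was 1.65 in PBS (SE 0.89) and 1.46 in LPS (SE 0.86), and the difference between these was -0.19 (SE 1.39, edgeR adjusted p = 1.00). Leaving out replicate 4 moved the PBS value to 0.98 for the p16-positive and to 2.65 for the p16-negative library of that number.

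Markers of other cell types, which could carry over into a macrophage sort, moved with the p16 fraction. All 11 such lists with a gene in the table had a higher median share of UMIs in p16-positive than in p16-negative libraries, among them endothelial cells (0.407% and 0.0903%), alveolar type II cells (1.23% and 0.527%), neutrophils (0.0822% and 0.0507%), T and NK cells (0.0188% and 0.0161%) and B cells (0.0110% and 0.0065%). Of the 11 endothelial genes on the list, 10 were measured, and by group their summed share of UMIs was 0.0358% to 0.279% in LPS p16-positive, 0.0256% to 0.0936% in LPS p16-negative, 0.534% to 1.21% in PBS p16-positive and 0.0869% to 0.501% in PBS p16-negative libraries, with none of the 10 at 0 in a whole group. The library with the highest share, PBS p16-positive replicate 2 at 1.21%, had Bcl2 at 10.1 CPM, and PBS p16-positive replicate 4 at 0.657% had 66.9 CPM. That last library also had the highest share of the 3 B cell genes measured, 0.0240% of UMIs, against 0.0018% to 0.0216% in the other 15 libraries. The part of any of these cells in the Bcl2 difference was not tested. In bulk libraries, fewer cells of a type and less RNA per cell cannot be told apart.

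**Figure D2:**
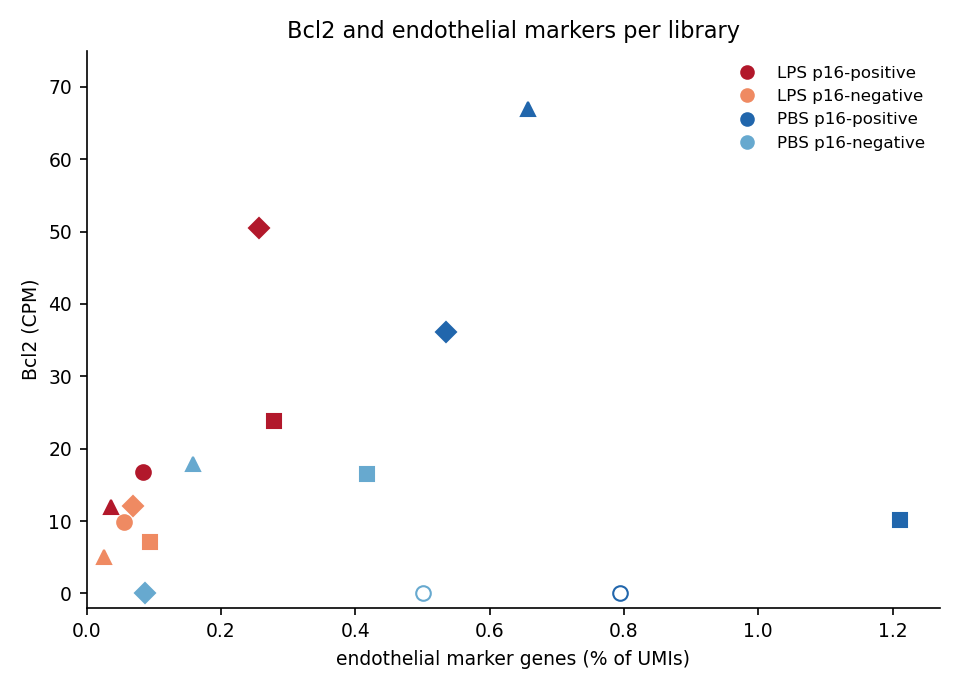
Bcl2 (vertical axis, CPM) against the summed share of 10 endothelial marker genes (horizontal axis, % of UMIs) in each of the 16 libraries, coloured by group, with marker shape for the replicate number and open circles for the shallow PBS replicate 1 libraries. The highest Bcl2 level, 66.9 CPM, stood at a share of 0.657%, and the library with the highest share, 1.21%, had 10.1 CPM.

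Between treatments Bcl2 showed no stable direction. Its log2 fold change of LPS over PBS libraries was -0.42 (SE 0.57, 95% interval -1.57 to 0.74, edgeR adjusted p = 0.925), and without PBS p16-positive replicate 4 it was 0.01. Pooled counts gave 36 UMIs in LPS libraries (13.97 CPM, interval 9.79 to 19.3) and 42 in PBS libraries (36.3 CPM, 26.1 to 49.0), with 29 of the 42 from that library. In p16-positive libraries the log2 fold change was -0.47 (SE 0.72), or 0.22 without PBS p16-positive replicate 4. In p16-negative libraries, with 6 UMIs in LPS and 5 in PBS, the value of -0.28 (SE 1.00) turned to 0.72 when PBS p16-negative replicate 4 was left out and to 0.09 when LPS p16-negative replicate 4 was.

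Bcl2l1, whose long product BCL-XL is anti-apoptotic, had the highest mean level of the members and differed between groups by less than the spread of the libraries. It had 347, 640, 438 and 276 CPM in LPS p16-positive libraries, against 436, 350, 252 and 256 CPM in LPS p16-negative libraries. In PBS mice it had 289, 526, 574 and 325 CPM in p16-positive libraries, against 317, 329, 383 and 254 CPM in p16-negative libraries. LPS p16-positive replicate 2 stood highest, and the fractions overlapped in both treatments. The group means were 425 ± 158 CPM in LPS p16-positive, 324 ± 87.4 CPM in LPS p16-negative, 428 ± 142 CPM in PBS p16-positive and 321 ± 53.1 CPM in PBS p16-negative libraries (SD, n = 4 each).

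The log2 fold change of Bcl2l1 was 0.40 for p16-positive over p16-negative libraries (SE 0.31, edgeR adjusted p = 0.800), with a 95% interval of 0.854 to 2.05 for the fold. For LPS over PBS it was 0.24 (SE 0.31, edgeR adjusted p = 0.919), with an interval of 0.763 to 1.83 for the fold. The p16 difference was 0.42 in PBS and 0.38 in LPS, and the interaction was -0.04 (SE 0.65). Without LPS p16-positive replicate 2 the p16 value was 0.26 over both treatments and 0.08 in LPS, and leaving out replicate 3 moved the PBS value to 0.18 for the p16-positive and to 0.64 for the p16-negative library of that number. In p16-positive libraries the LPS difference was 0.22 (SE 0.45), and it was -0.10 without LPS p16-positive replicate 2, a library in which secretory airway markers held 9.29% of UMIs. The intervals leave room for differences of up to about these sizes, and the 3′ counts do not separate the long and the short product of the gene.

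Mcl1, the short-lived anti-apoptotic member, had its lowest level in 1 LPS p16-negative library. It had 297, 266, 320 and 439 CPM in LPS p16-positive libraries, against 218, 214, 66.1 and 393 CPM in LPS p16-negative libraries. In PBS mice it had 433, 374, 455 and 431 CPM in p16-positive libraries, against 381, 296, 281 and 308 CPM in p16-negative libraries. The low value was LPS p16-negative replicate 3 with 11 UMIs, and in PBS the fractions overlapped only through p16-negative replicate 1, at 6 UMIs. Group means were 330 ± 76.1 CPM in LPS p16-positive, 223 ± 134 CPM in LPS p16-negative, 423 ± 34.5 CPM in PBS p16-positive and 316 ± 44.3 CPM in PBS p16-negative libraries (SD, n = 4 each), so that PBS p16-positive was highest and LPS p16-negative lowest.

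The log2 fold change of Mcl1 was 0.48 for p16-positive over p16-negative libraries (SE 0.30, 95% interval -0.13 to 1.08, edgeR adjusted p = 0.697), or 1.39-fold. Within treatments it was 0.38 in PBS (SE 0.45) and 0.57 in LPS (SE 0.43), and the LPS value was 0.27 without LPS p16-negative replicate 3 and 0.94 without LPS p16-negative replicate 4. Within a treatment, Mcl1 was higher in the p16-positive library of each of the 8 same-numbered pairs of fractions, as were 2.18% of genes tested, and the other 3 members were higher in 6 of 8. This was seen after the values were known and is given with no test, since no source says outright that the numbers pair the libraries. The LPS over PBS value was -0.15 (SE 0.30, edgeR adjusted p = 0.966), with an interval of 0.594 to 1.37 for the fold. It was -0.25 in p16-negative and -0.06 in p16-positive libraries. The first of these was 0.05 without LPS p16-negative replicate 3, and the second was 0.07 without PBS p16-positive replicate 3.

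Bbc3, which encodes the pro-apoptotic BH3-only protein PUMA, stood out among the members in that its level was higher in both p16-positive and LPS libraries at an unadjusted p below 0.05, and neither difference passed the test across all genes. It had 72.8, 106, 92.7 and 65.5 CPM in LPS p16-positive libraries, against 69.3, 21.4, 42.0 and 67.2 CPM in LPS p16-negative libraries. In PBS mice it had 0, 70.8, 41.3 and 66.9 CPM in p16-positive libraries, against 0, 16.4, 25.6 and 26.7 CPM in p16-negative libraries. The PBS values of 0 came from the shallow replicate 1 pair, where a count of 0 allows up to 216 and 190 CPM. The fractions overlapped in both treatments, and without that pair the PBS fractions did not overlap.

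The Bbc3 counts were 176 UMIs in p16-positive libraries (70.2 CPM, interval 60.2 to 81.4) and 54 UMIs in p16-negative libraries (44.0 CPM, 33.0 to 57.4). The log2 fold change of p16-positive over p16-negative libraries was 0.89 (SE 0.40, 95% interval 0.08 to 1.69), or 1.85-fold, with an unadjusted p of 0.0324 and an edgeR adjusted p of 0.386. By treatment, 176 UMIs were found in LPS libraries (68.3 CPM, 58.6 to 79.2) and 54 in PBS libraries (46.6 CPM, 35.03 to 60.8). The log2 fold change of LPS over PBS libraries was 1.02 (SE 0.40, 95% interval 0.20 to 1.83), or 2.03-fold, with an unadjusted p of 0.0159 and an edgeR adjusted p of 0.323. Over all alternatives run, the first value lay between 0.75 and 1.01 and the second between 0.73 and 1.12.

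Within single groups the p16 difference of Bbc3 was 1.18 in PBS (SE 0.66) and 0.71 in LPS (SE 0.52), or 0.45 in LPS without LPS p16-negative replicate 2, and the LPS difference was 1.31 in p16-negative (SE 0.65) and 0.84 in p16-positive libraries (SE 0.54), all on the log2 scale. The interaction was -0.47 (SE 0.84, edgeR adjusted p = 1.00). The group means were 84.1 ± 18.3 CPM in LPS p16-positive, 50.0 ± 22.7 CPM in LPS p16-negative, 44.7 ± 32.6 CPM in PBS p16-positive and 17.2 ± 12.4 CPM in PBS p16-negative libraries (SD, n = 4 each). The means of LPS p16-negative and PBS p16-positive libraries, neighbours in this order, lay within 1 SD of each other. Without the PBS replicate 1 pair the means were 59.7 ± 15.99 CPM in PBS p16-positive and 22.9 ± 5.64 CPM in PBS p16-negative libraries (SD, n = 3 each), and the order of these neighbours turned. The 11 marker lists of other cell types were higher in p16-positive libraries, as was Bbc3. By treatment, the monocyte and interstitial macrophage list (median 0.208% in LPS and 0.105% in PBS) and the alveolar macrophage list (4.51% in LPS and 2.72% in PBS) were higher in LPS libraries, as was Bbc3, and the other 10 lists were higher in PBS libraries, for example endothelial cells (0.0765% in LPS and 0.518% in PBS). Their part in the Bbc3 differences was not tested.

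**Figure D3:**
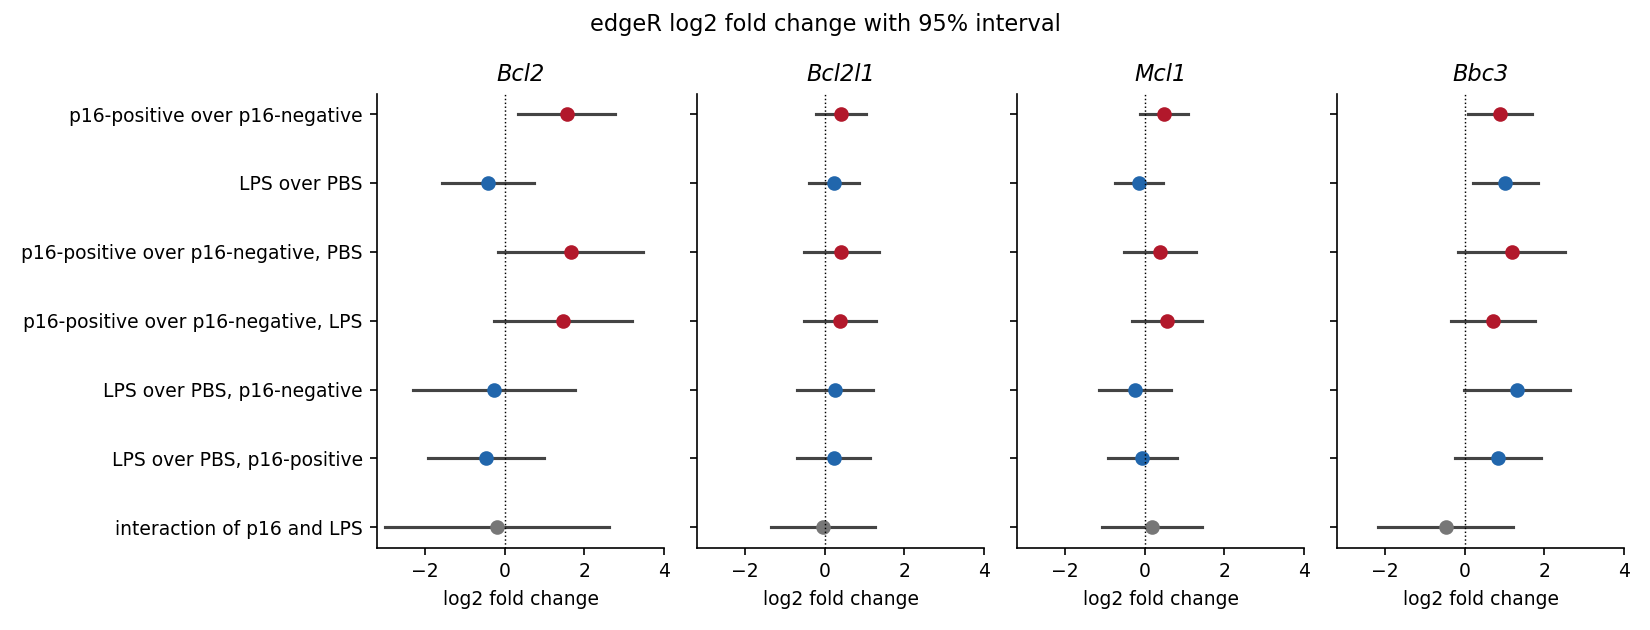
Log2 fold change (horizontal axes) of Bcl2, Bcl2l1, Mcl1 and Bbc3 in 7 comparisons (rows), as points with 95% intervals from edgeR. Intervals that exclude 0 were those of Bcl2 for p16-positive over p16-negative (0.34 to 2.78) and of Bbc3 for p16 (0.08 to 1.69) and for LPS over PBS (0.20 to 1.83).

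Set against all genes, 0 of the 4 members passed an edgeR adjusted p of 0.05 for p16-positive over p16-negative, where 1.41% of the 6516 genes tested did. At an unadjusted edgeR p below 0.05 the members were 2 of 4, Bcl2 and Bbc3, against 10.2% of all genes. At an unadjusted DESeq2 p below 0.05 they were 3 of 4, against 665 of 6516 genes. DESeq2 called 0 of the 3 members for which it gave an adjusted p, with none given for Bcl2. All 4 members had a positive value in this comparison, as did 56.9% of all genes, with a median of 0.68 for the members and 0.08 for all genes. For LPS over PBS, 0 of 4 passed, against 0.921% of all genes, and 1 of 4, Bbc3, was below an unadjusted p of 0.05, against 9.27% of all genes, and DESeq2 called 0 of the 3 with an adjusted p. The all-gene median of this comparison was 0.14 with the main scaling, 0.03 with size factors of the RLE type and -0.01 in DESeq2, and relative to the main median the values were 0.88 for Bbc3, 0.10 for Bcl2l1, -0.29 for Mcl1 and -0.56 for Bcl2.

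In the 4 comparisons of single groups and in the interaction, 0 of 4 members passed the adjusted threshold and 0 of 4 were below an unadjusted p of 0.05 in edgeR, and DESeq2 called 0 of those with an adjusted p. The adjusted threshold was passed by 0% of genes for p16 in PBS, 0% for p16 in LPS, 0.0153% for LPS in p16-negative, 0.0460% for LPS in p16-positive and 0% for the interaction. The unadjusted one was passed by 5.54%, 6.83%, 4.39%, 6.15% and 1.55% of genes in the same order. With all libraries, 0 of 4 members had groups whose CPM did not overlap, against 3.36% of genes for p16 in PBS, 2.16% for p16 in LPS, 2.67% for LPS in p16-negative and 3.28% for LPS in p16-positive libraries. Without the PBS replicate 1 pair, Mcl1 and Bbc3 were higher in PBS p16-positive libraries without overlap, 2 of 4 against 10.4% of genes.

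The balance of Mcl1 and Bcl2l1 differed between libraries of different replicate number, a pattern seen only after the values were known and given without a test. Mcl1 held 54.8% to 61.4% of the UMIs of both genes in the 4 libraries numbered 4, and 20.8% to 47.4% in the 10 libraries outside this set and the PBS replicate 1 pair. The highest share was in LPS p16-positive replicate 4 at 61.4% (95% exact binomial interval 58.0 to 64.7), against 60.5% (54.3 to 66.5) in LPS p16-negative replicate 4, 57.0% (51.5 to 62.4) in PBS p16-positive replicate 4 and 54.8% (45.7 to 63.6) in PBS p16-negative replicate 4. The lowest were LPS p16-negative replicate 3 at 20.8% (10.8 to 34.1) and LPS p16-positive replicate 2 at 29.3% (23.9 to 35.2). The PBS replicate 1 pair, with 10 and 11 UMIs of both genes, had 60.0% (26.2 to 87.8) in p16-positive and 54.5% (23.4 to 83.3) in p16-negative macrophages. The libraries numbered 4 were also the deepest of each group, with 1176358, 401857, 433490 and 224301 UMIs, and the part of depth in this balance was not tested.

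**Figure D4:**
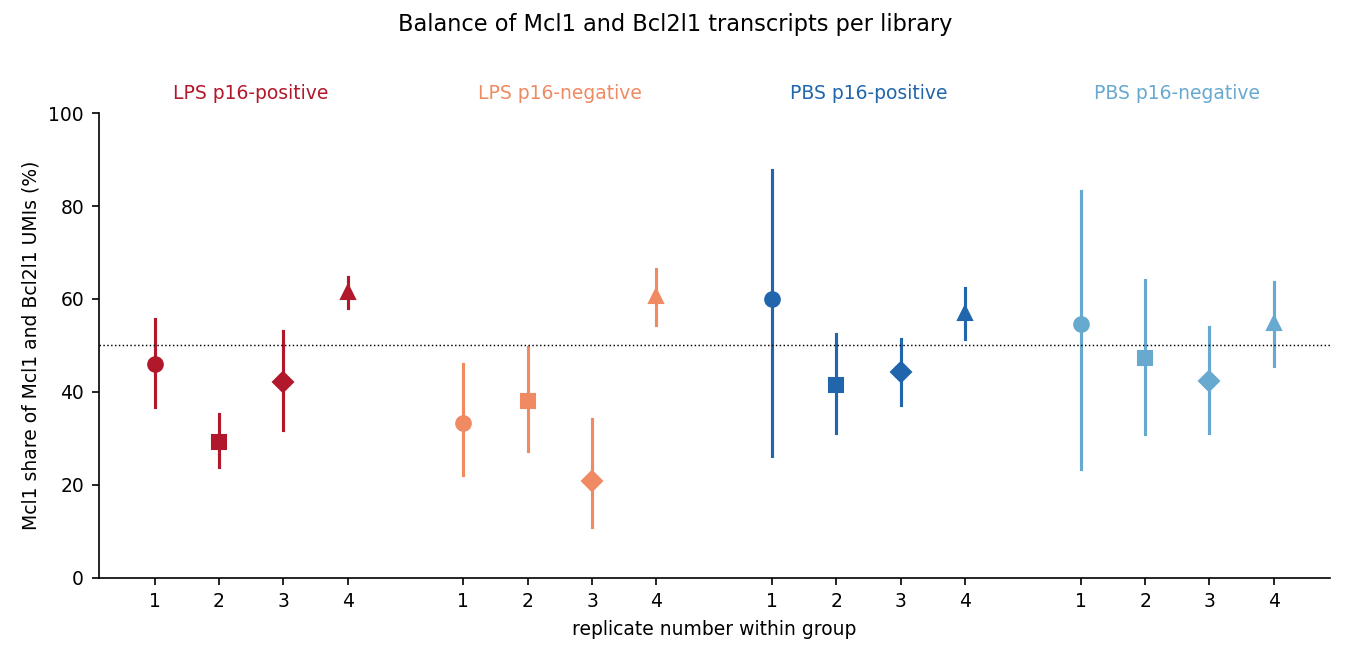
Share of Mcl1 among the UMIs of Mcl1 and Bcl2l1 (vertical axis, %) in each library, by group and replicate number (horizontal axis), with 95% exact binomial intervals; the dotted line marks equal UMIs. The 4 libraries numbered 4 lie between 54.8% and 61.4%, and the 10 libraries outside these and the PBS replicate 1 pair lie between 20.8% and 47.4%.

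The better measured members were only weakly related across libraries. Over the 14 libraries other than the PBS replicate 1 pair, Pearson's r of log2 CPM was 0.10 between Bcl2l1 and Mcl1, 0.41 between Bcl2l1 and Bbc3 and 0.12 between Mcl1 and Bbc3, given as a description of libraries that also differ in depth. Among 3034 other genes with at least 160 UMIs, those most like Bcl2l1 were Coq8b (r = 0.93 over 14 libraries, 0.73 over 16), Ankrd54 (0.91, 0.88) and Ppp1r37 (0.85, 0.46). Those most like Mcl1 were Xpo6 (0.93, 0.48), Tecpr1 (0.92, 0.16) and Pald1 (0.91, 0.80). Those most like Bbc3 were Unc13d (0.86, 0.91), Jund (0.80, 0.92), which encodes an AP-1 subunit, and Dyrk1b (0.78, 0.75). Bcl2, with 78 UMIs, was below the minimum for this measure.

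The other genes of the family were listed by role with earlier results of these data known. None of the 12 tested passed the adjusted threshold in any of the 7 comparisons with all libraries, the filter at 30 UMIs and no replicate block. Bcl2l2, the anti-apoptotic BCL-W gene, had a log2 fold change of -0.14 for p16-positive over p16-negative and -0.51 for LPS over PBS. The BCL2A1 copies Bcl2a1a and Bcl2a1b had 18 and 13 UMIs, below the minimum of 30, and as near-identical copies their counts are uncertain. Bcl2l10 and Bcl2a1d were not listed in the expression table under these names.

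The effectors BAX and BAK were among the more abundant family members. Bax had a mean of 551 CPM and Bak1 of 368 CPM over the 14 libraries, against 53.4 CPM for Bok, a more distant relative. Their log2 fold changes for p16-positive over p16-negative were -0.17 for Bax, 0.04 for Bak1 and 0.74 for Bok, and for LPS over PBS 0.21, 0.59 and 0.64. Bok had 83.9, 136, 59.0 and 49.3 CPM in LPS p16-positive libraries, against 39.6, 42.9, 42.0 and 24.9 CPM in LPS p16-negative libraries. These groups did not overlap, as was the case in the same direction for 1.69% of genes, with a log2 fold change of 1.15 (SE 0.53, unadjusted p = 0.0381, edgeR adjusted p = 0.614).

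Of the BH3-only genes besides Bbc3, Bik had the largest difference by p16. It had 28.0, 74.9, 8.42 and 5.95 CPM in LPS p16-positive libraries, against 0, 14.3, 0 and 0 CPM in LPS p16-negative libraries. In PBS mice it had 0, 60.6, 31.0 and 27.7 CPM in p16-positive libraries, against 63.5, 16.4, 0 and 0 CPM in p16-negative libraries, where 63.5 CPM was a single UMI of the shallow replicate 1. In all, 59 UMIs came from p16-positive and 4 from p16-negative libraries, 23.5 CPM (95% exact binomial interval 17.9 to 30.4) and 3.26 CPM (0.888 to 8.34). The log2 fold change was 2.87 (SE 0.84, 95% interval 1.16 to 4.58, edgeR adjusted p = 0.0695). One library, LPS p16-positive replicate 2, held 22 of the 63 Bik UMIs, and without it the value was 2.23 (edgeR adjusted p = 0.360). With no filter on low counts the edgeR adjusted p was 0.0466, and it was also below 0.05 without LPS p16-positive replicate 4 (0.0151) and without PBS p16-negative replicate 1 (0.0495). Replicate blocks gave an edgeR adjusted p of 0.00664 by number, 0.00722 within treatment and 0.00449 within treatment without both PBS replicate 1 libraries. No source says outright that the numbers pair the libraries, though the study counts 4 control and 4 inflamed samples for both fractions. The adjusted p stayed above 0.05 with RLE factors (0.103), in DESeq2 (0.0736) and without both PBS replicate 1 libraries (0.0761). The 11 marker lists of other cell types were higher in p16-positive libraries, as was Bik. LPS p16-positive replicate 2, with the highest Bik level, is also the library whose share of secretory airway markers is given above for Bcl2l1. The part of other cell types in the Bik difference was not tested.

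The rest of the BH3-only group had smaller values. For p16-positive over p16-negative the log2 fold changes were -0.08 for Bcl2l11, the BIM gene, 0.16 for Bid, -0.08 for Bad and 0.00 for Bmf, and for LPS over PBS they were -0.05, -0.03, 0.42 and -0.28, with -0.14 for Bik. Bad, which is inactivated by survival kinases, had a mean of 186 CPM, and Bcl2l11 and Bid were sparse at 6.74 and 9.68 CPM. Among the more distant relatives, Becn1, an autophagy gene that binds BCL2, had -0.73 and 0.20, Bcl2l12 had 0.56 and 0.22, and Tmbim6, the Bax inhibitor 1 gene, had 0.14 and 0.11. Bnip2, with 12 UMIs, was below the minimum and was not tested. The BH3-only genes Pmaip1 and Hrk were not listed in the expression table under these names. The same held for Bcl2l13, Bcl2l14, Bcl2l15, Bnip3 and Bnip3l among the more distant relatives. The Tmbim6 value for LPS over PBS turned negative with RLE size factors (-0.03) and in DESeq2 (-0.03).

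**Figure D5:**
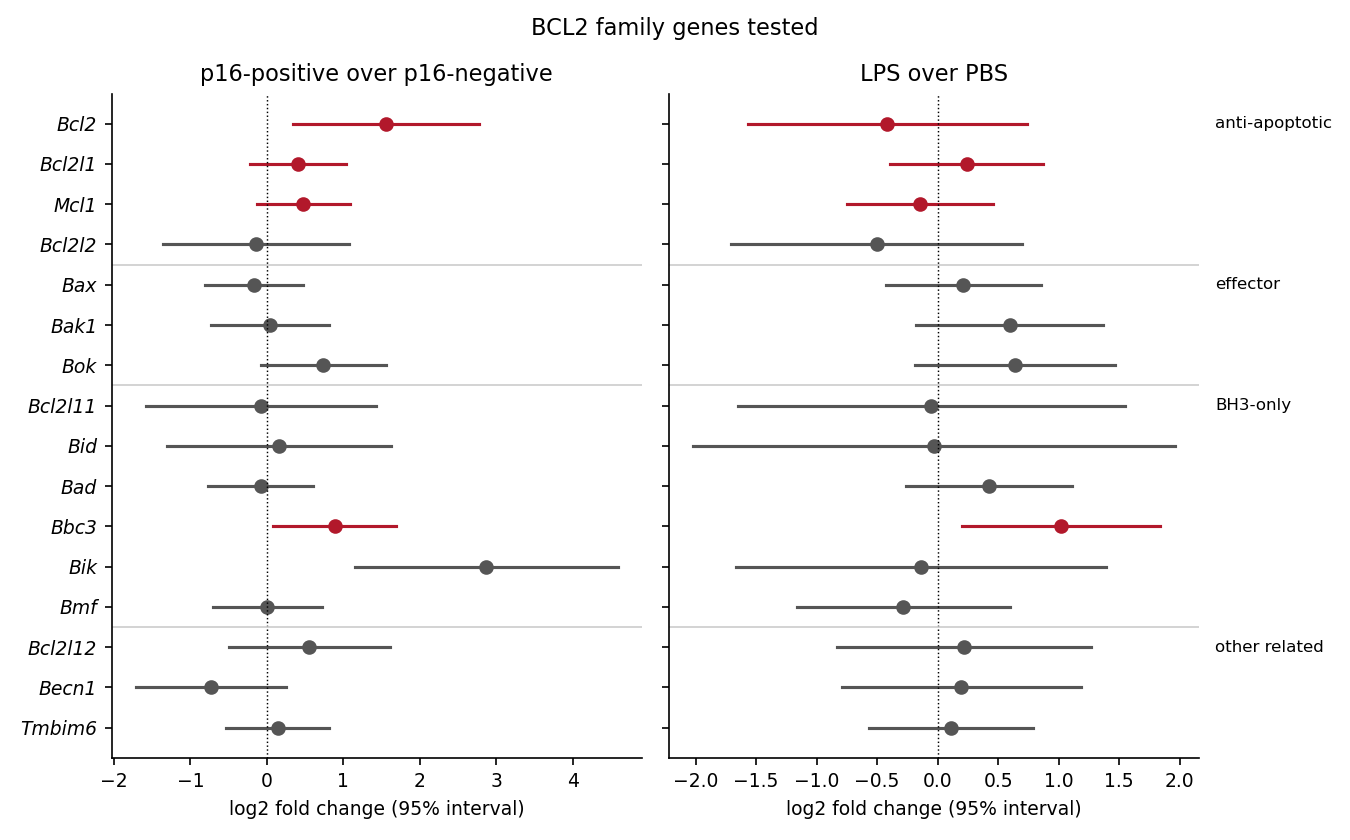
Log2 fold change with 95% interval (horizontal axes, edgeR) of the 16 BCL2 family genes tested (rows, grouped by role), for p16-positive over p16-negative on the left and LPS over PBS on the right; the 4 genes described in full are in red. Bik had the largest p16 value, 2.87, and none of the 16 passed the adjusted threshold in the fits shown.

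By role, 3 of 4 anti-apoptotic genes tested had positive p16 values, with a median of 0.44, and 1 of 4 had a positive LPS value, with a median of -0.28. The 3 effectors had a p16 median of 0.04 and an LPS median of 0.59, with all 3 positive for LPS. The 6 BH3-only genes tested, Bbc3 included, had medians of 0.08 and -0.04. All-gene medians were 0.08 for p16 and 0.14 for LPS, with positive values in 56.9% and 61.0% of all genes, and 0 genes of these roles passed the adjusted threshold, while at an unadjusted p below 0.05 there were 3 of the 16 family genes for p16 (Bcl2, Bbc3 and Bik) and 1 for LPS (Bbc3), against 10.2% and 9.27% of all genes. These unadjusted counts are from edgeR. In DESeq2 they were 4 family genes for p16 and 1 for LPS, against 665 and 619 of 6516 genes. DESeq2 called 0 of the 12 with an adjusted p in both.

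Downstream and upstream of the family, 0 of 30 listed genes tested passed the adjusted threshold in edgeR in either main comparison, where 1.41% of all genes did for p16 and 0.921% for LPS. Below an unadjusted p of 0.05 were 2 of 30 for p16 and 1 of 30 for LPS, against 10.2% and 9.27% of all genes. DESeq2 called 0 of the 23 and 22 with an adjusted p. Of 8 genes of the caspase cascade, 4 had positive p16 values and 7 had positive LPS values (56.9% and 61.0% of all genes), with medians of -0.13 and 0.73, and 1 was below an unadjusted p of 0.05 in each. Htra2, which encodes a mitochondrial protease released in apoptosis, had the largest LPS value of these at 1.01 (SE 0.33, unadjusted p = 0.0042, edgeR adjusted p = 0.163). Endog, a mitochondrial nuclease gene, had a p16 value of 1.17 (SE 0.50, edgeR adjusted p = 0.341), which was 0.33 without LPS p16-positive replicate 2, the library that held 309 of its 667 UMIs, and its LPS value of 0.84 (SE 0.50) was -0.02 without the same library. Ripk1, a kinase gene of death receptor signalling, had a p16 value of -1.19 (SE 0.66, edgeR adjusted p = 0.606).

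Of 5 inhibitor of apoptosis and FLIP genes, 2 had positive p16 values and 3 positive LPS values, with medians of -0.13 and 0.19, and 0 were below an unadjusted p of 0.05. Birc5, the survivin gene, had a p16 value of -0.95 (SE 0.49, edgeR adjusted p = 0.532), and Naip2, an inflammasome sensor gene, had an LPS value of 0.87 (SE 0.53, edgeR adjusted p = 0.692). Of 17 regulators of the members, 8 had positive p16 values and 9 positive LPS values, with medians of -0.10 and 0.11. Huwe1, which encodes a ubiquitin ligase that marks MCL1 protein for degradation, had the lowest p16 value of this list at -1.73 (SE 0.62, unadjusted p = 0.0082, edgeR adjusted p = 0.177). Csf2ra, a receptor chain for GM-CSF, the growth factor that maintains alveolar macrophages, had an LPS value of 0.64 (SE 0.38, edgeR adjusted p = 0.671).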

How the data were processed

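Alveolar macrophage libraries, 16 in all, were compared by p16 fraction and by exposure. The authors prepared 3′ libraries by a bulk form of MARS-seq, mapped them to mm10 with the UTAP pipeline (version not given in the sources used here), and deposited UMI counts per gene. A further 32 columns of the authors' normalized values for the same libraries were not used, and columns that hold the authors' own fold changes and p-values were neither used nor compared.

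CPM were computed from the deposited counts. edgeR 4.0.16 (R 4.3.3, limma 3.58.1) was run with TMM factors and its quasi-likelihood F test on the 6516 of 7946 genes with at least 30 UMIs in all, with Benjamini-Hochberg adjustment over all genes tested and a threshold of 0.05. The study gives the filter at 30 UMIs in its account of lung epithelial cells, and it used DESeq2 for the macrophage fold changes. The p16 and LPS comparisons shared an additive model. Single-group comparisons and the interaction came from a model of the 4 groups. All tests were two-sided, and the SE is the log2 fold change over the square root of F. The comparisons share libraries and are not independent.

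Alternatives were RLE factors, DESeq2 1.42.0, no filter, filterByExpr, leaving out each library, leaving out both PBS replicate 1 libraries, and replicate blocks. The scripts were tested on simulated data. Replicates of a group differed beyond sampling noise in every pair, with a chi-square of at least 3.33 per degree of freedom. The named genes were the 4 members, every other listed family gene in the table, up to 4 genes with the lowest p per main comparison among the caspase, inhibitor of apoptosis and regulator lists together with any past the threshold, Cdkn2a, and the 3 genes most like each member. The members and lists were chosen with earlier results of these data known. Promoter windows and gene positions are from RefSeq, GRCm38.p6.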

Additional observations from a re-analysis of the deposited data

Results flagged for a closer look

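Within each group of 4 libraries, the highest and the lowest value of every member, of the library total, of the endothelial and alveolar macrophage marker shares and of the Mcl1 share were set against the other libraries, 32 sets in all, and 2 libraries stood apart by Dixon's criterion, which chance alone meets in about 1 in 20 sets. LPS p16-positive replicate 4 had 1176358 UMIs, against 118703 to 293771 UMIs in the rest of its group. LPS p16-negative replicate 3 had 8.18% of UMIs in the alveolar macrophage markers, against 3.98% to 4.58% in the rest of its group, and it was also the library with the lowest Mcl1 level, 66.1 CPM. No value of Bcl2, Bcl2l1, Mcl1 or Bbc3 stood apart in this way. The part of these libraries in any difference was not tested beyond leaving each out.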

How the results depend on the processing

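No member passed the adjusted threshold in any comparison under any alternative, and the lowest adjusted p was 0.0846, for Bcl2 by p16. Of 669 member values refitted, 646 kept their direction. The 23 others all lay in the LPS comparisons and the interaction. Depth limits the sparse genes: Bid, with 30 UMIs, could be refitted in 3 of the 16 fits that left out 1 library, and Bcl2 was not tested under filterByExpr. A pair of fits were chosen after seeing the data, the block within treatment without both PBS replicate 1 libraries and the fit that also leaves out LPS p16-positive replicate 2. The cause of the moves below was not tested.

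The count of genes called by p16 was 92, and it was 157 with no filter, 21 with filterByExpr, 43 without both PBS replicate 1 libraries and 0 to 284 when single libraries were left out (the lowest when LPS p16-negative replicate 4 and the highest when LPS p16-positive replicate 4 was the library left out). For LPS it was 60, against 137 in DESeq2 and 29 to 195 with single libraries left out (29 without PBS p16-positive replicate 4, 195 without LPS p16-positive replicate 2). For p16 in LPS it was 0, against 50 with no filter and 0 to 165. For LPS in p16-negative it was 1, against 12 in DESeq2, 2 with no filter and 0 to 5. For LPS in p16-positive it was 3, against 5 with RLE factors, 23 in DESeq2, 14 with no filter, 5 with filterByExpr, 7 without both PBS replicate 1 libraries and 0 to 90.

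Replicate numbers were not taken to pair the libraries, since no source says outright that they do, and the main p16 tests take the fractions as independent. For its comparison of p16-positive and p16-negative macrophages the study counts 4 control and 4 inflamed samples. Each sample may thus have given both fractions. In that case the main p16 tests leave out a pairing, which the block within treatment below includes. Deviations of same-numbered fractions within a treatment correlated at 0.07 to 0.72 over 8 pairs, of which 7 were over 0.1. Among the 4 libraries of the other fraction in their treatment, 12 of 16 libraries correlated best with their own number. A replicate block by number gave 260 genes by p16, 242 by LPS, 40 by p16 in PBS, 86 by p16 in LPS, 26 by LPS in p16-negative and 123 by LPS in p16-positive. A block within treatment gave 357 by p16, 155 in PBS, 147 in LPS and 1 for the interaction, and without both PBS replicate 1 libraries 329, 101 and 99. Neither block called a member. Every blocked fit called Bik by p16 (edgeR adjusted p = 0.00664 by number, 0.00722 within treatment and 0.00449 within treatment without both PBS replicate 1 libraries), both fits with the block within treatment called Endog by p16 (0.89, adjusted p = 0.0475, and 1.05, adjusted p = 0.0218, without both PBS replicate 1 libraries), and the block by number called Htra2 by LPS (1.07, adjusted p = 0.0410). Bmf by p16 was -0.0034 and -0.0069 with the block within treatment, with all libraries and without both PBS replicate 1 libraries.

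Single genes turned direction as follows, on the log2 scale. Bcl2l1 by LPS in p16-positive was -0.0048 with filterByExpr and -0.017 without both PBS replicate 1 libraries. Tmbim6 by LPS was -0.031 with RLE factors, -0.033 in DESeq2, -0.074 with filterByExpr and -0.063 without both PBS replicate 1 libraries. With libraries left out, the ranges for Bcl2 were -0.73 to 0.010 by LPS, -0.69 to 0.72 by LPS in p16-negative, -0.90 to 0.22 by LPS in p16-positive and -1.19 to 0.49 for the interaction. For Bcl2l1 they were -0.092 to 0.37 by LPS, -0.39 to 0.46 by LPS in p16-positive and -0.59 to 0.18 for the interaction. For Mcl1 they were -0.63 to 0.054 by LPS in p16-negative, -0.26 to 0.067 by LPS in p16-positive and -0.12 to 0.56 for the interaction. By p16 they were -0.33 to 0.0075 for Bcl2l2, -0.10 to 0.16 for Bak1, -0.30 to 0.33 for Bcl2l11, -0.061 to 0.27 for Bid, -0.21 to 0.028 for Bad, -0.24 to 0.24 for Bmf and -0.77 to 0.14 for Cdkn2a. By LPS they were -0.36 to 0.30 for Bcl2l11, -0.074 to 0.12 for Bid, -1.22 to 0.16 for Bik, -0.027 to 0.51 for Bcl2l12, -0.12 to 0.23 for Tmbim6 and -0.020 to 1.04 for Endog.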
